A study of Homo sapiens with 24 samples.

Results

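Small nucleolar RNAs (snoRNAs), their Cajal body relatives (scaRNAs) and the noncoding transcripts that carry them were followed in U251 cells, an established human astrocytoma line used as a model of glioblastoma, after exposure to G-1, a synthetic agonist of the G protein-coupled estrogen receptor GPER1. A gene was included when its RefSeq transcript on the array mapped to a symbol that starts with SNORA, SNORD, SCARNA or SNHG, or to GAS5. This rule gave 332 genes, measured by 374 probes, out of 24817 genes with a symbol on the array: 188 C/D box snoRNA genes, 95 H/ACA box snoRNA genes, 21 scaRNA genes and 28 host genes. RefSeq listed 603 genes that meet the same rule, so the others had no probe here.

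The 24 one-colour arrays formed 6 groups of 4 independent cultures each. All cells were first deprived of steroid hormones for 24 h in medium with charcoal-stripped serum. They then received the vehicle DMSO, the IC50 dose of G-1 or G-1 at 1 µM, each for 24 h or 72 h. The labels give DMSO as 0.1%. The published methods give a lower percentage, and which is right was not settled here. A second label field gave the opposite duration for the IC50 24 h and the 1 µM 72 h samples, and the sample titles were followed. U251 is a single line, so the data describe that line alone. The glial and glioma genes VIM, CD44, NES, GFAP, S100B, SOX9 and EGFR were well above background on all 24 arrays, as was the neuronal marker RBFOX3, whereas PTPRC (leukocytes), ALB (hepatocytes), EPCAM (epithelium) and PECAM1 (endothelium) were well above background on 0 arrays. At 1 µM and 72 h several of these genes fell themselves, by log2 fold changes of -2.71 for GFAP, -1.96 for S100B, -1.58 for RBFOX3 and -0.25 for VIM, while SOX9 differed by 0.06 (limma adjusted p = 0.781). Their part in the results below was not tested.

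Most human snoRNAs lie in introns of longer genes and are cut from the excised intron. C/D box snoRNAs guide ribose methylation and H/ACA box snoRNAs guide pseudouridine formation, mainly on ribosomal RNA, while scaRNAs guide the same reactions on spliceosomal RNAs. Some hosts encode ribosomal proteins or translation factors. Others, the SNHG genes and GAS5, have spliced exons with no conserved protein product, and several of those exonic transcripts are degraded by nonsense-mediated decay when they are translated. A probe for an intronic snoRNA and a probe for the host exons thus read different products of the same primary transcript. The labelling kit primes from poly(A), which mature snoRNAs lack, so whether a snoRNA probe read the mature RNA or its precursor cannot be told apart.

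Many snoRNA hosts are known for a transcript that opens with an uninterrupted run of pyrimidines, and the start regions of some of the hosts described here are shown for that reason. Each window holds the 40 bases before the annotated start and the 30 bases from it (RefSeq, GRCh38.p14), 5′ to 3′ on the strand of the gene, and capitals mark the C and T bases that run without a break from the start. The first 5 belong to host transcripts that rose with 1 µM G-1 at 72 h, followed by GAS5 and SNHG17, which rose as well, and by SNHG19 and SNHG18, which fell. The positions are chr11:62855856-62855925 (SNHG1, minus strand), chr6:85678704-85678773 (SNHG5, minus strand), chr9:136728155-136728224 (SNHG7, minus strand), chr1:28581844-28581913 (SNHG12, minus strand), chr6:31834876-31834945 (SNHG32, plus strand), chr1:173869016-173869085 (GAS5, minus strand), chr20:38435299-38435368 (SNHG17, minus strand), chr16:2155329-2155398 (SNHG19, minus strand) and chr5:9546160-9546229 (SNHG18, plus strand).
SNHG1: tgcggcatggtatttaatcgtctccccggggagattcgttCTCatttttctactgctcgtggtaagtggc
SNHG5: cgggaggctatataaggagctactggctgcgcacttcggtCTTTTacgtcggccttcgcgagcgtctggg
SNHG7: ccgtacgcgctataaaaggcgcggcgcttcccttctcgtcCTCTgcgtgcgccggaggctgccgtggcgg
SNHG12: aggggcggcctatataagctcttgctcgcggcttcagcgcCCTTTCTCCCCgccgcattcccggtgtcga
SNHG32: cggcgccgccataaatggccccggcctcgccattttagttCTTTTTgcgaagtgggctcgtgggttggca
GAS5: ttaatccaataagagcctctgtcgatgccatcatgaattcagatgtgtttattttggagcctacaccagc
SNHG17: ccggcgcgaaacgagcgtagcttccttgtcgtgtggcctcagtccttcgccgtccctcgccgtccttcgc
SNHG19: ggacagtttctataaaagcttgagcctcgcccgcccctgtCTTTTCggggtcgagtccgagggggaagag
SNHG18: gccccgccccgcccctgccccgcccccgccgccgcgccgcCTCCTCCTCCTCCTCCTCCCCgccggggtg

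A C at the annotated start followed by at least 4 further pyrimidines was present in 6 of 25 host promoters (24 host genes matched), those of SNHG4, SNHG5, SNHG12, SNHG18, SNHG19 and SNHG32, and in 4.07% of 35116 promoters in the table. The run at the start was 5 bases in SNHG5, 6 in SNHG19 and SNHG32, 11 in SNHG12 and 21 in SNHG18, and it was 3 in SNHG1, 4 in SNHG7 and 0 in GAS5 and SNHG17. Among hosts whose windows are not shown, it was 1 in SNHG8 and 0 in SNHG3, SNHG10, SNHG14 and SNHG21. Of the promoters of hosts that rose at 1 µM and 72 h, 3 of 10 held such a start, as only 10 of the 13 hosts that rose were matched to a promoter. The letters TATAA between 40 and 16 bases before the start, on the strand of the gene, were found for SNHG5, SNHG7, SNHG8, SNHG12 and SNHG19, against 3.91% of all promoters. The letters CACGTG, on either strand of the promoter window in the table, were found for SNHG7 alone among the matched hosts, against 7.26% of all promoters. These matches are descriptions of the annotated start, which can be some bases off or may not be the start used in these cells. A short run or a run of 0, as in GAS5, thus does not show that a host lacks the feature. They were shared by hosts that rose and hosts that fell: SNHG19 and SNHG18 held the pyrimidine start as did SNHG5, SNHG12 and SNHG32.

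Between 38.0% and 44.5% of spots were well above background on each array, with 38.0% to 40.7% on the 1 µM arrays and 41.1% to 44.5% on all others, and the median local background was 48 to 58 on the 1 µM arrays against 44 to 48 on the others (intensity units). The part of this in the results, which bears on dim snoRNA probes most, was not tested. No spot was saturated, and arrays of the same group correlated with r between 0.990 and 0.996 over the 22970 probes tested. The arrays lay on 3 slides read in 2 scan sessions. All 8 arrays of 1 µM G-1 were on slide 3 and in session 2, whereas DMSO and IC50 arrays shared slides 1 and 2. The effect of 1 µM G-1 against DMSO cannot be told apart from that slide and session, whereas 72 h against 24 h of 1 µM G-1 lies within slide 3. Levels are log2 intensities minus the 75th percentile of the array, and a gene was said to rise or fall when its brightest tested probe had a limma adjusted p under 0.05 (Benjamini-Hochberg over all tested probes).

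Of the 332 genes, 158 were well above background on all 24 arrays, 79 on some and 95 on none, and 207 could be tested because at least 1 group showed signal on all 4 arrays. Detection differed by class: 83 of 188 C/D genes were seen on no array, against 7 of 95 H/ACA genes, 2 of 21 scaRNA genes and 3 of 28 hosts. The undetected C/D genes were mostly members of the imprinted, tandemly repeated clusters, with all 8 SNORD113 genes, all 29 SNORD114 genes and all 10 SNORD115 genes undetected and 6 of 10 SNORD116 genes undetected. Probe sequences were not examined here, so whether a probe of such near-identical copies also reads other members was not tested. The same holds for SNORA70 and its copies SNORA70B to SNORA70G, each of which was tested and counted as a gene of its own. The tested set held 89 C/D, 77 H/ACA and 17 scaRNA genes, here called small RNA genes (183 in all), and 24 hosts. Among hosts, SNHG22, SNHG27 and SNHG31 were seen on no array and SNHG4 on 8. Of the tested genes, 5 entered through the 1 µM 72 h arrays alone and 18 through DMSO or IC50 arrays without either 1 µM group. The 5 were SNORD74, SNORD88C, SNORD101, SNORA66 and SCARNA3. SNORD12B and SNORD63 entered through the 1 µM groups alone. The filter favours a rise with 1 µM in these genes and a fall in the 18. Their p-values in the 1 µM comparisons thus give no independent support. SNORD101 and SNORA66 showed signal on each 1 µM 72 h array and on none of DMSO 72 h, and SNORA16B showed the opposite.

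At the IC50 dose no small RNA gene passed the test at either time. At 24 h, 0 of 183 small RNA genes and 0 of 24 hosts passed the limma threshold, where 0.218% of all 14235 tested genes were called higher and 0.0281% lower. Without adjustment (p under 0.05), 2 small RNA genes were higher and 2 lower, and 0 hosts either way, against 2.65% and 2.00% of all genes. The median log2 fold change at 24 h was 0.30 for scaRNA genes (14 of 17 above 0) and 0.12 for H/ACA genes (54 of 77 above 0), beside -0.01 for all genes, and at 72 h it was 0.07 and -0.02, beside -0.02. At 72 h, 0 small RNA genes passed and 1 host fell, against 0.429% of all genes higher and 0.478% lower. Without adjustment, 1 small RNA gene was higher and 5 were lower, and 1 host was higher and 6 were lower, against 3.76% and 5.87% of all genes. The host that fell was SNHG8, which carries the H/ACA snoRNA SNORA24. Its levels were 6.39, 6.34, 6.48 and 6.52 with DMSO and 6.17, 6.16, 6.20 and 6.24 with the IC50 dose at 72 h. The groups did not overlap, and the log2 fold change was -0.24 (SE 0.05, limma adjusted p = 0.0449). The call was lost with slide as a block (adjusted p = 0.0549) and in 7 of the 8 fits that omit a single array, the exception being DMSO replicate 2.

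With 1 µM G-1 more small RNA genes rose than fell at both times, and so did hosts at 72 h. At 24 h, 55 of 183 small RNA genes rose and 4 fell, against 20.0% of all genes higher and 10.5% lower. The risers were 32 of 89 C/D genes (36.0%) and 23 of 77 H/ACA genes (29.9%), and no scaRNA gene passed in either direction (limma, 0 of 17). Copies within a family, such as SNORA70 and SNORA70B to SNORA70G, enter these counts as separate genes and may not be independent readings. Without adjustment 3 scaRNA genes were higher and 0 lower, and the matching share of all genes is not given here. At 72 h, 116 small RNA genes rose (63.4%) and 6 fell, against 35.2% of all genes higher and 31.0% lower. These were 60 C/D genes, 51 H/ACA genes and 5 scaRNA genes that rose, and 2, 3 and 1 that fell. With the tests kept to genes detected on all 24 arrays, 89 of 136 small RNA genes and 13 of 22 hosts rose, and 5 and 3 fell. The share of all genes under that filter is not given here, and the 35.2% and 31.0% belong to the fit of all 14235 tested genes. The median log2 fold change at 72 h was 0.66 for C/D genes, 0.68 for H/ACA genes, 0.21 for scaRNA genes and 0.25 for hosts, beside 0.03 for all genes. A change above 2-fold in addition was seen for 47 small RNA genes that rose and 2 that fell at 72 h, against 4.92% and 7.42% of all genes, and for 8 that rose and 1 that fell at 24 h, against 0.513% and 1.18% of all genes.

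**Figure D1:**
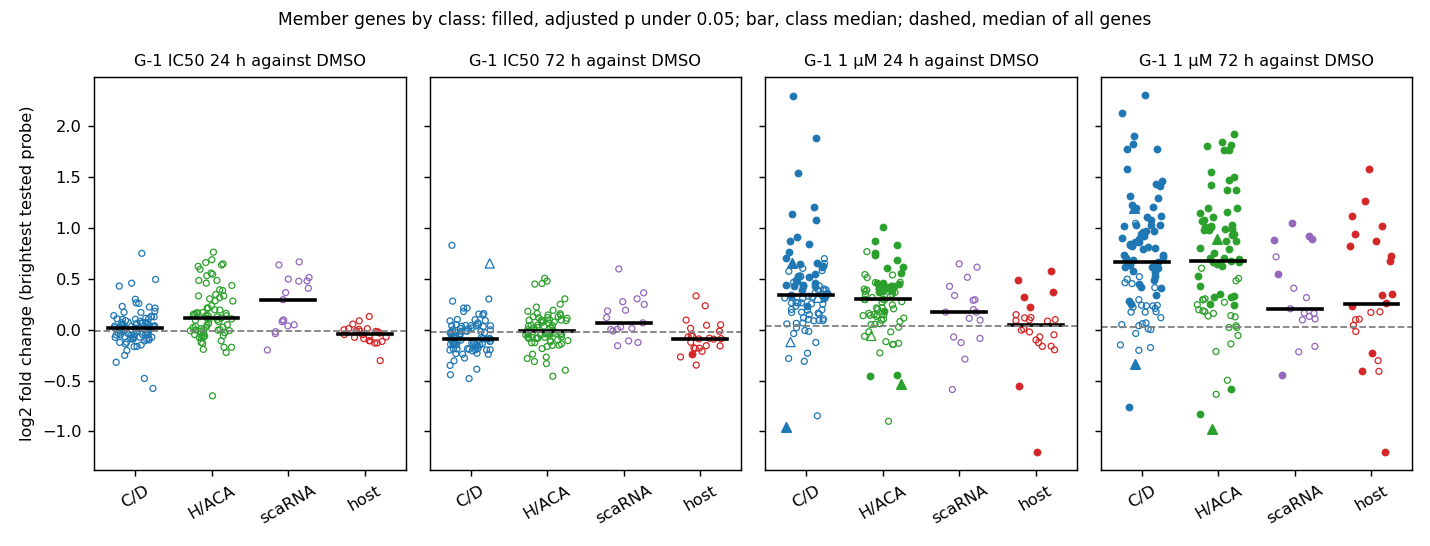
Log2 fold change of each tested gene (y axis) by class (x axis) in the 4 comparisons with DMSO, where filled points passed the adjusted p threshold, bars are class medians and the dashed line is the median of all genes. Triangles stand for genes not above background on any array of 1 or both groups, drawn at the bound where there is one. At 1 µM and 72 h the C/D and H/ACA medians lay at 0.66 and 0.68, against 0.03 for all genes, whereas at the IC50 dose no small RNA point is filled.

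The arrays of 1 µM at 24 h were spread in this respect. The median small RNA gene stood 0.62, 0.39, 0.25 and 0.01 above its DMSO 24 h mean on replicates 1 to 4, on the log2 scale. At 72 h the medians were 0.62, 0.83, 0.57 and 0.53, so each array of that group was raised. DMSO arrays ranged from -0.12 to 0.13 and IC50 arrays from -0.26 to 0.20. Without replicate 1 of 1 µM 24 h, 36 small RNA genes passed at that time in place of 59.

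Among the 24 hosts, 5 rose (20.8%) and 2 fell (8.33%) at 24 h, near the 20.0% and 10.5% of all genes. At 72 h, 13 rose (54.2%) and 3 fell (12.5%), beside 35.2% and 31.0% of all genes. SNHG1, the host of a cluster of C/D snoRNAs, had levels of 4.57, 4.70, 4.83 and 4.86 with DMSO at 72 h, 4.60, 4.77, 4.89 and 4.63 with the IC50 dose, and 6.27, 6.38, 6.32 and 6.32 with 1 µM. Every 1 µM array lay above every other array, and at 24 h the 1 µM values of 5.54, 5.45, 5.36 and 5.28 also lay above the DMSO values of 4.94, 4.93, 4.91 and 4.89. The change was 0.49 (SE 0.08, adjusted p = 0.000307) at 24 h and 1.58 (SE 0.08, adjusted p = 5.1e-12) at 72 h, a 2.99-fold rise.

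SNHG15, the host of SNORA9, measured 3.51, 3.54, 3.59 and 3.67 with DMSO and 4.86, 4.93, 4.86 and 4.71 with 1 µM at 72 h, a rise of 1.26 (SE 0.07, adjusted p = 5.6e-12). SNHG17, which carries copies of the H/ACA snoRNA SNORA71, measured 3.36, 3.44, 3.55 and 3.57 with DMSO and 4.58, 4.65, 4.59 and 4.57 with 1 µM, a rise of 1.12 (SE 0.07, adjusted p = 5.2e-11). Neither pair of groups overlapped. SNHG7, the host of SNORA17 genes, rose by 1.02 (SE 0.07, adjusted p = 2.3e-10) and SNHG12, the host of SNORA44, SNORA61, SNORA16A and SNORD99, by 0.94 (SE 0.07, adjusted p = 5.4e-10). These 5 hosts were also the ones that rose at 24 h, by 0.37 (SNHG15), 0.57 (SNHG17), 0.32 (SNHG7) and 0.22 (SNHG12) beside the 0.49 of SNHG1. At 24 h the SNHG12 groups overlapped, and its call was lost in 8 alternatives, among them the 50th percentile scaling (adjusted p = 0.302) and leaving out DMSO replicate 4 (adjusted p = 0.0659).

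GAS5, whose introns hold a row of C/D snoRNAs and whose spliced transcript is a known substrate of nonsense-mediated decay, measured 6.98, 6.96, 6.99 and 7.45 with DMSO and 7.89, 7.82, 7.68 and 7.69 with 1 µM at 72 h. The single DMSO array at 7.45 was the nearest to the 1 µM values, and no values overlapped. The rise was 0.68 (SE 0.10, adjusted p = 4.3e-06), while at 24 h the difference was 0.12 (adjusted p = 0.365). SNHG5 rose by 0.83, SNHG21 by 0.88 and SNHG32 by 0.72 at 72 h. Smaller rises were measured for SNHG9 (0.35), SNHG3 (0.34), SNHG6 (0.26) and SNHG8 (0.23), of which SNHG3 (adjusted p = 0.0914), SNHG6 (adjusted p = 0.0874) and SNHG8 (adjusted p = 0.114) no longer passed with the 50th percentile scaling. The remaining 8 tested hosts, SNHG10, SNHG11, SNHG14, SNHG16, SNHG20, SNHG28, SNHG29 and SNHG33, ranged from -0.41 to 0.18 and did not pass.

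**Figure D2:**
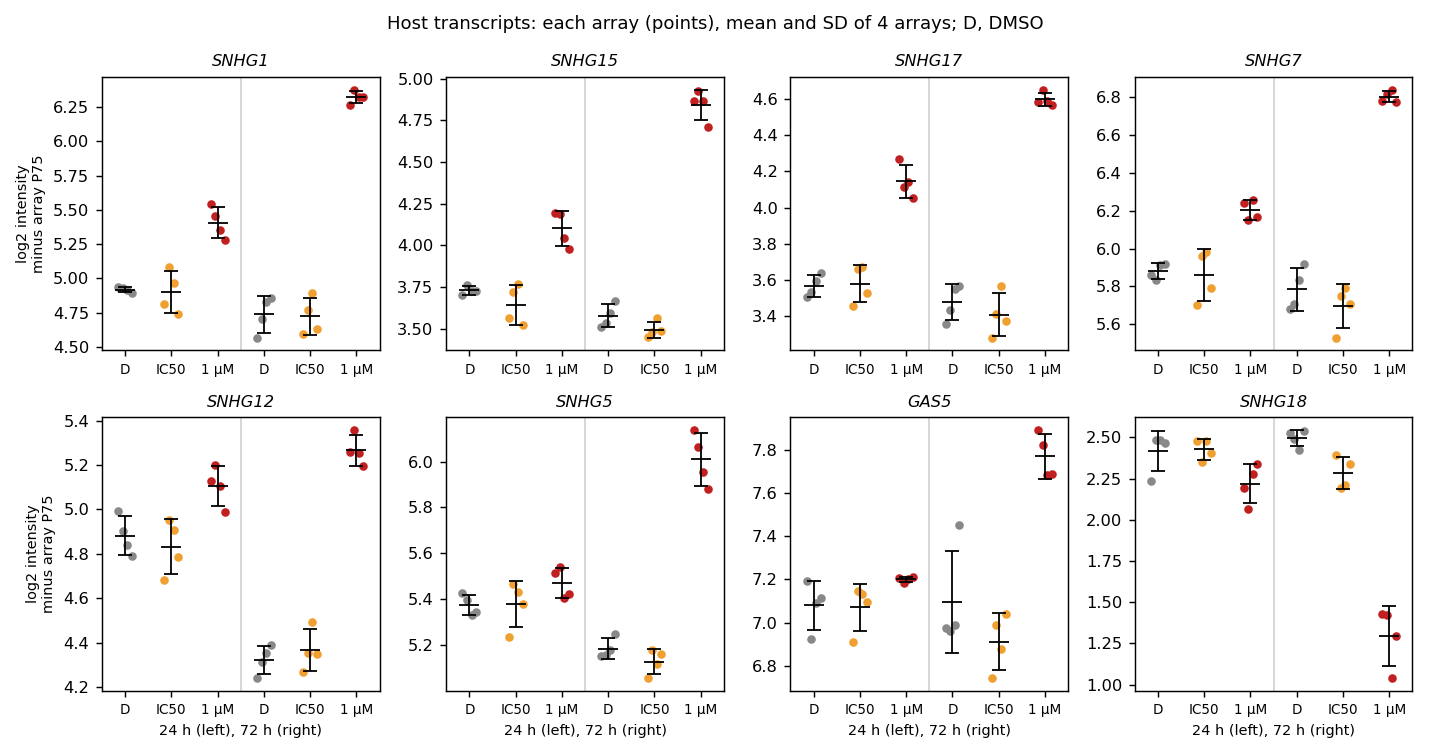
Log2 intensity minus the 75th percentile of the array (y axis) for 8 host transcripts in DMSO (grey), IC50 (orange) and 1 µM G-1 (red) at 24 h and 72 h, with points for arrays and bars for the mean and SD of 4 arrays. SNHG1 reached 6.27 to 6.38 with 1 µM at 72 h against 4.57 to 4.86 with DMSO, and SNHG18 dropped to between 1.04 and 1.43.

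Of the 3 hosts that fell at 72 h, SNHG18 changed most. It measured 2.52, 2.49, 2.43 and 2.54 with DMSO and 1.43, 1.43, 1.04 and 1.30 with 1 µM, with no overlap, a change of -1.20 (SE 0.08, adjusted p = 2.5e-10). SNHG19, the host of SNORD60, changed by -0.41 (adjusted p = 0.000291) and SNHG25, the host of SNORD104, by -0.23 (adjusted p = 0.0231). The SNHG25 groups overlapped, and its call was lost when DMSO replicate 4 (adjusted p = 0.0964), 1 µM replicate 3 (adjusted p = 0.0922) or 1 µM replicate 4 (adjusted p = 0.0581) was left out. At 24 h, SNHG10, the host of SCARNA13, measured -1.36, -0.84, -1.23 and -1.66 with DMSO and -3.44, -2.33, -1.92 and -2.22 with 1 µM, a change of -1.21 (SE 0.28, adjusted p = 0.00338), and its 72 h difference of -0.41 did not pass (adjusted p = 0.204). SNHG14, the long imprinted transcript over the SNORD115 and SNORD116 clusters, changed by -0.55 at 24 h (adjusted p = 0.0338) and did not pass without DMSO replicate 2 (adjusted p = 0.124), DMSO replicate 4 (adjusted p = 0.0672) or 1 µM replicate 1 (adjusted p = 0.116). The 50th percentile scaling also lost the call (adjusted p = 0.0664). Its other tested probes did not give 1 answer at 24 h: a probe at -0.54 passed (adjusted p = 0.0268), and those at -0.68, -0.06, 0.12 and 0.20 did not.

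Several hosts had more than 1 tested probe. All tested probes of SNHG1 (1.58 and 2.24), GAS5 (0.68 and 1.07), SNHG15 (1.26 to 1.43), SNHG17 (0.72 to 1.12), SNHG7 (0.35 to 1.51) and SNHG5 (0.79 to 1.23) rose at 1 µM and 72 h. SNHG6 did not give 1 answer: its brightest probe rose by 0.26, the next differed by -0.12 (adjusted p = 0.319) and the dimmest changed by -1.06 (adjusted p = 0.00116). SNHG11 probes changed by -0.02, -1.45 and 0.44, and SNHG29 probes by 0.04, 0.20 and 0.82. Both SNHG18 probes fell at 72 h, the brightest by -1.20 and the other by -0.60 (limma adjusted p = 3.4e-07). At 24 h the brightest changed by -0.20 (adjusted p = 0.0812) and the other by -0.32 (adjusted p = 0.00211). Which isoforms these probes read was not analysed here.

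The small RNA genes with the largest measured rises at 1 µM and 72 h, SNORD101 apart because it had only a bound, were SNORD46, SNORD63, SNORA80A, SNORD74, SNORA62, SNORD71, SNORA38B, SNORA44, SNORD69, SNORD12B, SNORA9, SNORA48 and SNORD86. Of these, SNORD63, SNORD74 and SNORD69 were well above background on 1 of 4 DMSO 72 h arrays, SNORA38B on 2 and SNORD12B on 3, so their DMSO levels rest partly on dim spots, and the others on all 4. SNORD63, SNORD74 and SNORD12B, and SNORD101 as well, were tested through 1 µM arrays alone, so the filter favours a rise in them. SNORD46, a C/D snoRNA, measured 0.04, -0.44, -0.83 and -0.79 with DMSO and 1.79, 2.08, 1.64 and 1.71 with 1 µM at 72 h. At 24 h it measured -0.90, -0.60, -0.87 and -0.89 with DMSO and 2.23, 1.56, 1.46 and 0.70 with 1 µM. The groups were apart at both times, with changes of 2.30 (SE 0.33, adjusted p = 8.3e-05) at 24 h and 2.31 (SE 0.33, adjusted p = 5.0e-06) at 72 h.

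SNORD71, a C/D snoRNA in the adaptor gene AP1G1, measured -1.98, -1.54, -1.90 and -1.94 with DMSO and 0.57, 0.16, 0.07 and -0.59 with 1 µM at 24 h. Its change was 1.89 (SE 0.21, adjusted p = 7.3e-06) at 24 h and 1.83 (SE 0.21, adjusted p = 2.5e-07) at 72 h. SNORD101, in RPS12, was well above background on 0 of 4 DMSO arrays and on all 4 arrays of 1 µM at 72 h, where it was at least 2.29-fold higher (measured means -4.46 and -2.08, adjusted p = 1.5e-05). SNORD63, in the mitochondrial chaperone gene HSPA9, measured -3.02, -4.58, -4.12 and -5.15 with DMSO and -2.11, -2.37, -1.97 and -1.91 with 1 µM at 72 h, a change of 2.13 (SE 0.33, adjusted p = 9.8e-06).

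SNORD74, one of the GAS5 snoRNAs, measured -3.98, -2.92, -2.83 and -3.68 with DMSO and -1.41, -1.63, -1.42 and -1.33 with 1 µM at 72 h, a change of 1.91 (SE 0.30, adjusted p = 1.1e-05). It was tested through those 1 µM 72 h arrays alone, so this p-value gives no independent support. At 24 h its 1 µM arrays ran from -3.45 to -1.78 and the change of 0.65 did not pass (adjusted p = 0.101). SNORA62 measured 0.13, 0.17, -0.47 and -0.29 with DMSO and 1.81, 2.40, 1.18 and 1.55 with 1 µM at 72 h, a change of 1.85 (SE 0.29, adjusted p = 1.3e-05). SNORA44, in SNHG12, changed by 1.81 (SE 0.38, adjusted p = 0.000309) at 72 h and by 0.47 (adjusted p = 0.370) at 24 h. SNORA80A (1.93), SNORA38B (1.82), SNORD69 (1.78), SNORD12B (1.78), SNORA9 (1.77), SNORA48 (1.77), SNORD86 (1.58) and SNORA2A (1.55) completed this group. Past both thresholds at 24 h were SNORD46, SNORD71, SNORD12B (1.54), SNORD101 (at least 1.58-fold, seen on 2 of 4 arrays), SNORD63 (1.21), SNORD69 (1.13), SNORD91A (1.08) and SNORA2A (1.01). For SNORD12B, SNORD101 and SNORD63, tested through 1 µM arrays alone, passing gives no independent support. Among the genes past both thresholds at 24 h, SNORA2A (adjusted p = 0.0608), SNORD69 (adjusted p = 0.0826) and SNORD101 (adjusted p = 0.0530) no longer passed without 1 µM replicate 1. SNORD101 (adjusted p = 0.0656) and SNORD69 (adjusted p = 0.0607) also fell short without DMSO 24 h replicate 4.

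**Figure D3:**
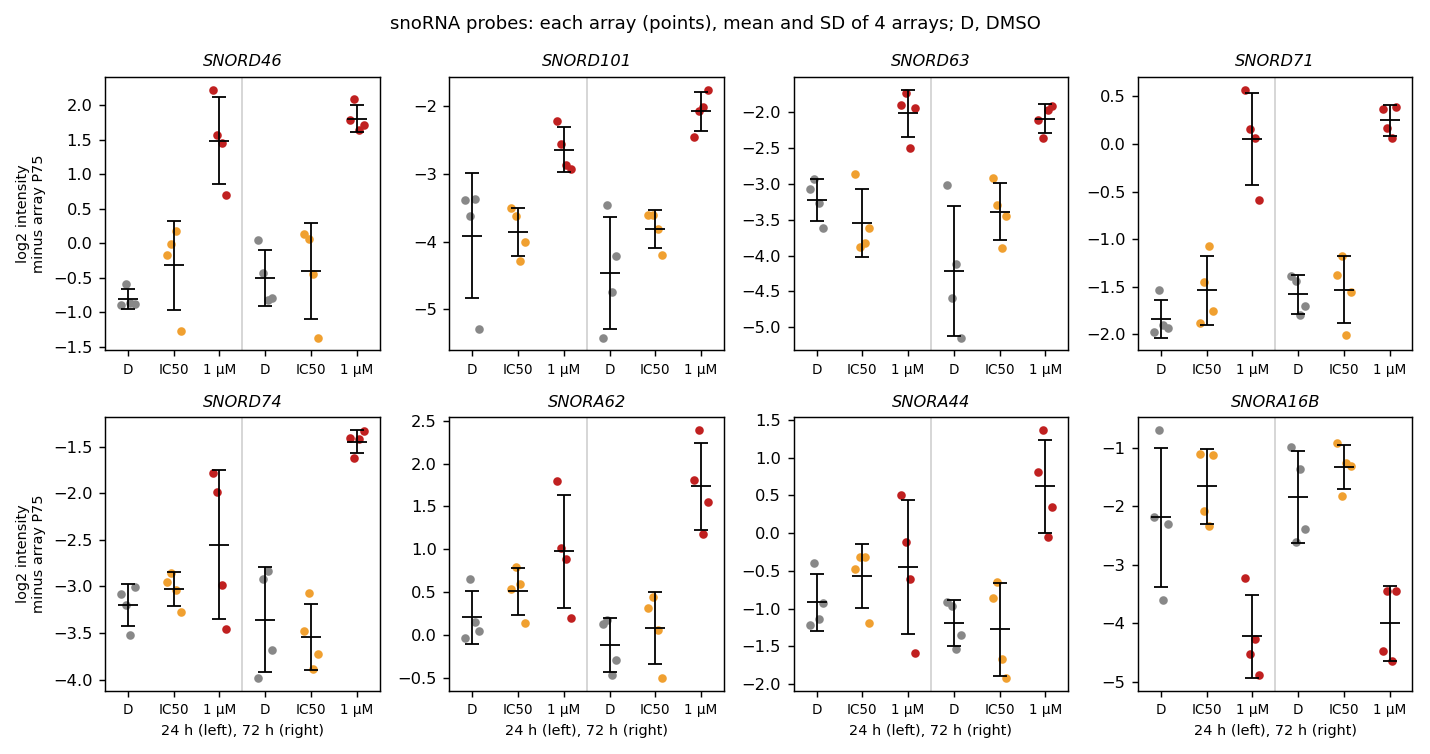
Log2 intensity minus the 75th percentile of the array (y axis) for 8 snoRNA genes in DMSO (grey), IC50 (orange) and 1 µM G-1 (red) at 24 h and 72 h, with points for arrays and bars for the mean and SD of 4 arrays. SNORD46 and SNORD71 were raised at both times, SNORD74 at 72 h, and SNORA16B was lower with 1 µM at both times. SNORD101 in DMSO and IC50 and SNORA16B in 1 µM were not well above background on any array.

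The small RNA genes that fell at 72 h were SNORA16B, SNORD108, SNORA11, SNORD116-19, SNORA22 and SCARNA17. SNORA16B, an H/ACA gene in PPP2R5A, was well above background on all 4 DMSO arrays at 72 h (-0.98, -2.61, -1.37 and -2.38) and on 0 arrays of 1 µM, and was at least 1.97-fold lower (measured means -1.84 and -4.0, adjusted p = 0.000889). At 24 h it was at least 1.45-fold lower (adjusted p = 0.00546), although the groups overlapped. SNORD108 was at least 1.26-fold lower at 72 h (adjusted p = 0.000777). PPP2R5A itself rose by 0.42 (adjusted p = 0.00645). SNORD116-19, the single tested member of its imprinted family, changed by -0.76 (SE 0.08, adjusted p = 1.1e-07) at 72 h, while its host SNHG14 differed by 0.10 (adjusted p = 0.665). SNORA11 changed by -0.83 (adjusted p = 1.0e-05), and its host MAGED2 by -0.37 (adjusted p = 0.00157).

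The comparison of 72 h with 24 h within 1 µM G-1 was free of the slide difference. There 39 of 183 small RNA genes were higher and 3 lower, against 18.9% of all genes higher and 24.3% lower, so the share of small RNA genes that rose (21.3%) was near that of all genes while few fell (1.64%). Their median log2 fold change was 0.27, with 151 of 183 above 0, beside -0.01 for all genes. Of the hosts, 11 were higher and 3 lower. SNHG1 rose by 0.91 (adjusted p = 3.3e-08), SNHG15 by 0.74 (adjusted p = 3.0e-08), GAS5 by 0.57 (adjusted p = 8.4e-05) and SNHG5 by 0.54 (adjusted p = 9.2e-07). SNHG18 changed by -0.92 (adjusted p = 3.6e-08) and SNHG19 by -0.77 (adjusted p = 4.1e-07). Between DMSO at 72 h and 24 h, 0 small RNA genes were higher and 3 lower (SNORA18, SNORD80 and SCARNA13), and 0 hosts were higher and 5 lower (SNHG9, SNHG12, SNHG19, SNHG21 and SNHG25), against 1.29% of all genes higher and 2.05% lower. Without adjustment, 2 small RNA genes were higher and 16 lower in that comparison, and 0 hosts were higher and 10 lower. The matching share of all genes without adjustment is not given here, so these counts have no baseline beside them.

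The difference between the 72 h and the 24 h effect of 1 µM G-1, in which a constant offset of slide 3 cancels, was positive for 30 small RNA genes and 11 hosts and negative for 2 and 1. Of all genes, 16.4% were positive and 17.7% negative. The share of small RNA genes above the threshold on the positive side was thus 16.4%, the same as that of all genes, while 1.09% were negative, and the share of hosts was 45.8%. The median was 0.34 for small RNA genes, with 147 of 183 above 0, and 0.41 for hosts, beside 0.0026 for all genes. SNHG1 gave 1.09 (adjusted p = 1.1e-06), SNHG15 0.89 (adjusted p = 9.2e-07), SNHG12 0.72 (adjusted p = 1.8e-05) and GAS5 0.56 (adjusted p = 0.00408). SNORD74 gave 1.26 (adjusted p = 0.0266) and SNORD86 0.97 (adjusted p = 0.00104). As SNORD74 was tested through the 1 µM 72 h arrays alone, the filter favours a positive difference for it. SNORD46 gave 0.01 (adjusted p = 0.993) and SNORD71 -0.06 (adjusted p = 0.901).

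Small RNA genes were set beside their hosts by the RefSeq span that contains them, without regard to strand (4 genes in several spans were assigned from general knowledge), which gave 156 pairs with both sides tested. At 1 µM and 72 h the small RNA gene rose in 102 pairs, as the sum of 59 in which the host rose too, 35 in which the host did not pass and 8 in which the host fell. In 24 further pairs the host rose and the small RNA gene did not pass. In the 39 pairs with a ribosomal protein host, 26 of the 39 small RNA genes rose and 0 fell, while 3 of the 20 hosts rose, 2 fell and 15 did not pass. The median log2 fold change in those pairs was 0.64 for the small RNA genes and -0.03 for the hosts. In 33 pairs within SNHG genes or GAS5, 25 small RNA genes rose and 1 fell, and 8 of 14 hosts rose and 2 fell. In 84 pairs with another host, 51 small RNA genes rose and 2 fell, and 39 of 64 hosts rose and 6 fell. Of all genes, 35.2% rose and 31.0% fell in that comparison. The difference between paired changes was not tested, since probes of different sequence respond on different scales.

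**Figure D4:**
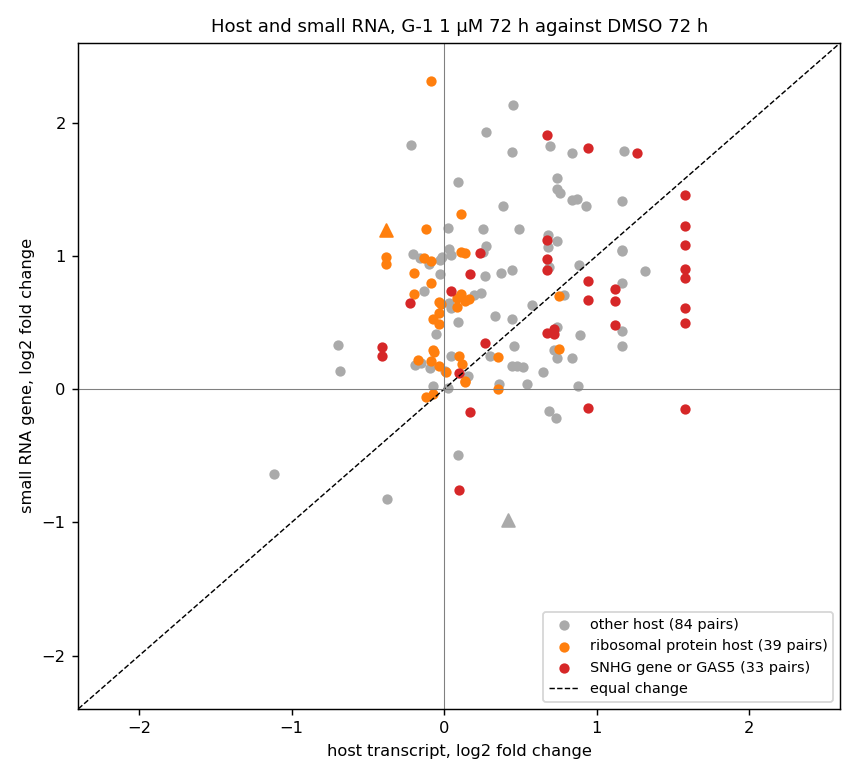
Log2 fold change at 1 µM and 72 h of the host transcript (x axis) and of the small RNA gene inside it (y axis) for 156 pairs, coloured by host type, with the line of equal change dashed. Ribosomal protein pairs (orange) line up near 0 for the host, with a median of -0.03, while the small RNA genes in them had a median of 0.64. Triangles stand at the bound for genes not above background on any array of 1 group.

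Single ribosomal protein hosts are described next. RPS12 changed by -0.38 (adjusted p = 0.00745), and its 3 small RNA genes rose, SNORA33 by 0.99 and SNORD100 by 0.94 beside SNORD101. In RPL13A (-0.04, adjusted p = 0.741), SNORD32A (0.66, which has the near-identical copy SNORD32B), SNORD35A (0.57) and SNORD34 (0.49) rose, and SNORD33 (0.17) did not pass. In RPL3 (0.11, adjusted p = 0.309), SNORD83A (1.32), SNORD43 (1.03) and SNORD83B (0.71) all rose. AP1G1, with SNORD71 inside, changed by -0.22 (adjusted p = 0.00341).

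Within the noncoding hosts the small RNA genes of 1 transcript also spread widely. SNHG1 rose by 1.58, and of its 8 tested snoRNA genes SNORD27 (1.46), SNORD25 (1.23), SNORD31 (1.08), SNORD28 (0.90), SNORD22 (0.83) and SNORD29 (0.61) rose, whereas SNORD30 (0.50, adjusted p = 0.0807) and SNORD26 (-0.15, adjusted p = 0.366) did not pass. SNORD27 measured 0.08, -0.44, -0.75 and -0.89 with DMSO and 1.09, 1.29, 0.73 and 0.74 with 1 µM at 72 h, with no overlap. In GAS5 (0.68), all 5 tested snoRNA genes rose: SNORD74 (1.91), SNORD44 (1.12), SNORD80 (0.98), SNORD76 (0.89) and SNORD47 (0.42). Of these, SNORD74 was tested through the 1 µM 72 h arrays alone. In SNHG12 (0.94), SNORA44 (1.81), SNORD99 (0.81) and SNORA61 (0.67) rose and SNORA16A (-0.14, adjusted p = 0.392) did not pass. SNHG25 fell while its SNORD104 rose by 0.65 (SE 0.09, adjusted p = 1.7e-06), and SNHG19 fell while its SNORD60 rose by 0.25 (adjusted p = 0.0131).

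NOP56, itself a C/D core protein, rose by 0.74, with SNORD86 (1.58), SNORA51 (1.5) and SNORD56 (1.11) above it and SNORD110 (0.46) and SNORD57 (0.24) not past the threshold. TAF1D, a subunit of the factor that selects the RNA polymerase I promoter, rose by 1.17, and 5 of its 6 tested small RNA genes rose, from SNORA25 (0.32) to SNORD6 (1.41). In ZFAS1 (0.45), SNORD12B rose by 1.78 while SNORD12 (0.52) and SNORD12C (0.17) did not pass.

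**Figure D5:**
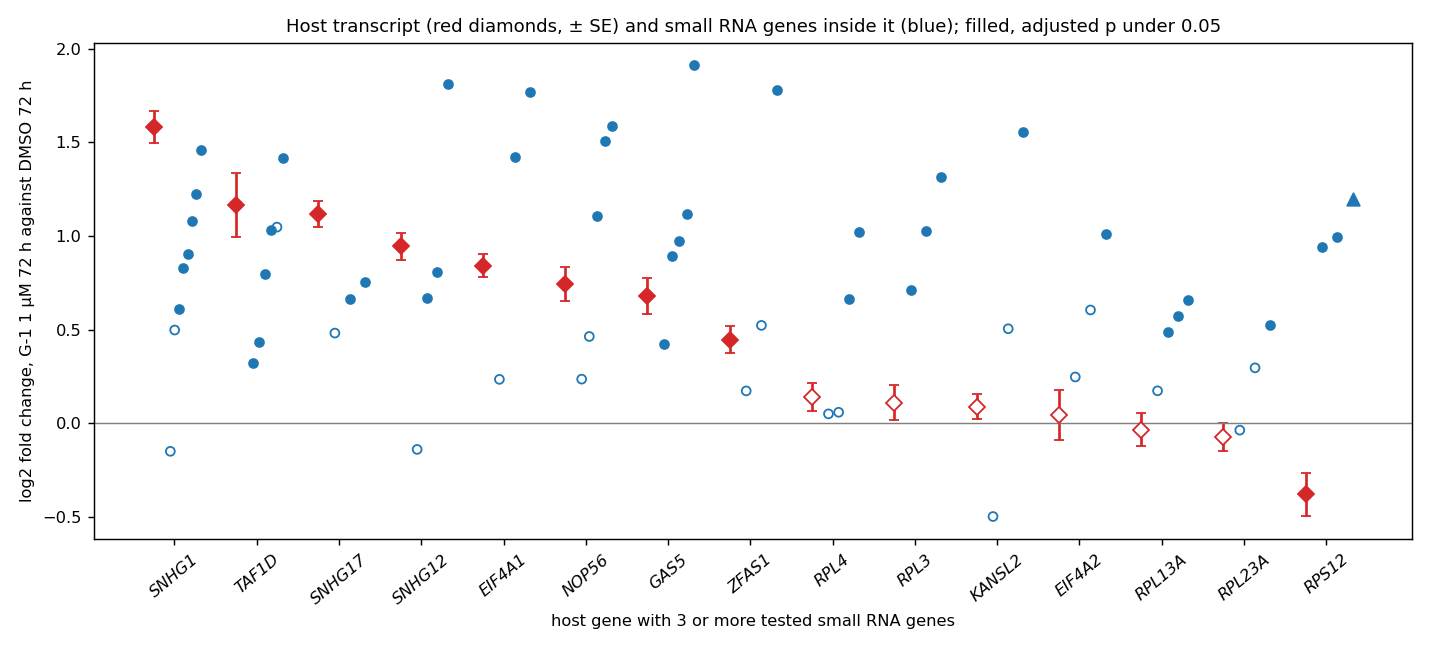
Log2 fold change at 1 µM and 72 h (y axis) of 15 host transcripts with at least 3 tested small RNA genes (red diamonds, bars for SE) and of the small RNA genes inside them (blue), with filled symbols for adjusted p under 0.05. RPS12 (-0.38) sits lowest among the hosts drawn, and the triangle in its column is SNORD101 at its bound of 2.29-fold.

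The proteins that make and carry snoRNPs were taken from lists chosen with earlier results of these data known. Of 29 tested genes in 5 such lists, 23 rose and 0 fell at 1 µM and 72 h, 10 rose and 0 fell at 24 h, and 0 passed at the IC50 dose at either time. Of all genes, 35.2% rose and 31.0% fell at 1 µM and 72 h, and 20.0% and 10.5% at 24 h. The C/D core proteins all rose: NOP58 (0.87), NOP56 (0.74), the methyltransferase FBL (0.57) and SNU13 (0.37). Among the H/ACA core proteins the pseudouridine synthase DKC1 rose by 1.36 (SE 0.11, adjusted p = 2.0e-09), NHP2 by 0.34 and GAR1 by 0.24, and NOP10 differed by -0.01 (adjusted p = 0.897). Of 9 assembly factors 6 rose, led by NOPCHAP1 (0.94), SHQ1 (0.93), RUVBL2 (0.65) and RUVBL1 (0.65). Of 6 transport and Cajal body genes 4 rose, TCOF1 (1.02), WRAP53 (0.88), PHAX (0.73) and NOLC1 (0.67). All 6 tested end-processing genes rose, among them the poly(A) polymerase TENT4B (1.86) and the exosome subunit EXOSC3 (0.86). Their median was 0.66 for the C/D core, 0.29 for the H/ACA core, 0.60 for assembly, 0.70 for transport and 0.48 for end processing.

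Nonsense-mediated decay factors, which clear spliced transcripts of several noncoding hosts, went in both directions. Of 16 tested, 7 rose and 2 fell at 1 µM and 72 h, and 4 rose and 3 fell at 24 h, beside 35.2% and 31.0% of all genes at 72 h and 20.0% and 10.5% at 24 h. SMG5 (0.83), UPF3B (0.52), MAGOH (0.50) and CASC3 (0.43) rose. The helicase UPF1, central to the pathway, changed by -0.47 (SE 0.09, adjusted p = 8.3e-05) and the exonuclease XRN1 by -0.71 (SE 0.10, adjusted p = 6.1e-06). A chosen list of 3 noncoding snoRNA hosts outside the naming rule held DANCR (0.58), ZFAS1 (0.45) and EPB41L4A-AS1 (0.35), which all rose at 72 h. The list is not complete, as MEG8 and LINC03006 also span small RNA genes and were not in it.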

How the data were processed

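The deposited scanner files hold intensity values of 1-colour Agilent 60-mer arrays, extracted by the authors with Agilent Feature Extraction (10.7.3.1 per the labels, 12.1.1.1 per the file headers). The deposited value table holds log2 values, which equalled the shifted intensities centred on each probe's median, to within 0.1 for 100% of values, and served as an alternative. Outlier spots were dropped, log2 processed signals averaged per probe and shifted by each array's 75th percentile. Depth is replaced here by signal over background, and the 4 arrays per group limit the precision.

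Group means of all 24 arrays were fitted with limma 3.58.1 in R 4.3.3 on 22970 of 58118 probes, those with signal flagged above background throughout 1 group or more (all 4 arrays). A gene was represented by its brightest tested probe (14235 genes). The replicates are labelled as independent experiments. Deviations of same-numbered arrays from their group means correlated above 0.1 in all 4 pairs of DMSO 24 h with 1 µM 24 h (0.17 to 0.28). In the other comparisons with DMSO they did so in only some pairs. The counts above come from the fit without a replicate term, so they do not use this pairing. With a replicate block, 66 small RNA genes rose and 6 fell at 1 µM 24 h, in place of 55 and 4. The replicate block was an alternative throughout. Gene names and host spans came from RefSeq tables (GRCh38.p14), while the array design names hg19, so no gene coordinates were carried between them, and 24 small RNA genes within several spans and 5 within none were left unpaired, while SNORA48, SNORA67 and SNORD10 (EIF4A1) and SNORD87 (SNHG6), also within several, were paired from general knowledge. The values of 1 host and its pairs are not reported one by one here. Named were all hosts that changed, the 15 small RNA genes with the largest 2-fold changes at 1 µM and 72 h, those past both thresholds at 24 h, the small RNA genes of described hosts and up to 4 genes per list. The members, lists and tests were chosen with earlier results of these data known. On simulated data for 1 µM 72 h against DMSO 72 h (22970 probes), 44.8%, 88.1% and 100.0% of probes changed by 0.5, 1 and 2 on the log2 scale were recovered, with 8 false calls. Only 200 probes were changed there, with independent noise and no slide offset. In the real comparison 35.2% of all genes rose and 31.0% fell, so these rates do not describe it.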

Additional observations from a re-analysis of the deposited data

Results flagged for a closer look

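Of 210 sets of 4 arrays (35 named genes in 6 groups), 10 had a sample far from the other 3 by Dixon's ratio, and chance flags about 1 in 20. They were GAS5 in DMSO 72 h (0.942; 7.45 on replicate 4 against 6.96 to 6.99), SNHG21 in DMSO 72 h (0.836; 1.05 on replicate 2 against 1.57 to 1.67), SNHG18 (0.918), SNORD101 (0.865) and SNORD46 (0.903) in DMSO 24 h, SNHG10 (0.831), SNHG25 (0.942) and SNHG6 (0.836) in IC50 72 h, and SNHG14 (0.859) and SNHG6 (0.916) in 1 µM 24 h.

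The effect of 1 µM G-1 differed between 72 h and 24 h, by the limma interaction term at an adjusted p under 0.05, for 18 named genes, 17 of them upward. The differences in log2 fold change were 1.09 for SNHG1, 0.946 for SNHG21, 0.893 for SNHG15, 0.73 for SNHG5, 0.72 for SNHG12, 0.695 for SNHG7, 0.606 for SNHG32, 0.557 for GAS5, 0.545 for SNHG17, 0.468 for SNHG3 and 0.359 for SNHG9 among hosts. They were 1.26 for SNORD74 (tested through the 1 µM 72 h arrays alone), 1.23 for SNORA9, 1.08 for SNORA62, 1.06 for SNORA80A, 1.02 for SNORA48 and 0.969 for SNORD86 among snoRNA genes. SNHG18 alone had a negative difference, of -1.0 for its brightest probe, while its other probe changed less at 72 h and more at 24 h.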

How the results depend on the processing

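Alternatives were the 50th percentile, quantile normalization, normexp, the deposited table, no filter, a filter for detection on all 24 arrays, the 8 arrays of the comparison, a mean-variance trend, a replicate block, slide as a block (not possible for 1 µM, which has its own slide), the methods' t-test, a 2-fold threshold, any probe of a gene, and leaving out each array.

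At the IC50 dose and 72 h, the 1 host that fell became 0 with the 50th percentile, normexp, no filter, the 8 arrays alone, slide as a block, either form of the methods' t-test and the 2-fold threshold, and 2 with the trend. At 1 µM and 24 h, 7 changed hosts became 4 with the 50th percentile, 11 with any probe, 1 with the 2-fold threshold or the unadjusted methods' t-test and 0 with its adjusted form, and 59 small RNA genes became 37 with the 50th percentile, 110 without a filter, 9 with the 2-fold threshold or the unadjusted methods' t-test and 5 with its adjusted form. At 1 µM and 72 h, 16 hosts became 5 and 122 small RNA genes became 49 with the 2-fold threshold and with either form of the methods' t-test. The cause was not tested beyond what these thresholds remove by construction.

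Leaving out 1 array gave 0 hosts and 0 small RNA genes for the IC50 dose at 24 h, 0 to 1 and 0 to 1 at 72 h, 5 to 8 hosts and 36 (without 1 µM replicate 1) to 76 small RNA genes for 1 µM at 24 h, and 15 to 17 and 115 to 127 at 72 h. Deviations of same-numbered arrays correlated above 0.1 in every pair for 1 µM 24 h with DMSO 24 h, and in only some pairs for the other comparisons with DMSO. For IC50 72 h with DMSO 72 h they ran from 0.05 to 0.49. The replicate block lost no call that a named gene had in the main fit and changed no count by over 1.5 times. It gave 0, 1, 7 and 16 hosts and 0, 0, 72 and 127 small RNA genes in the order IC50 24 h, IC50 72 h, 1 µM 24 h and 1 µM 72 h. Of 884 recomputed changes of named genes, all of them calls in the main fit, 837 kept their direction and call, 47 lost the call and 0 reversed. Calls that named genes gained under an alternative were not examined.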
